A study of Mus musculus with 6 samples.

Results

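The genes described here are 8 genes of the podocyte, chosen by symbol from the 23873 genes of the expression table: Nphs1, Magi2, Ptpro, Podxl, Synpo, Plce1, Wt1 and Tcf21. Each symbol matched 1 row. The RNA-seq libraries were made from whole kidney at an age of 8 weeks, 3 in each of 2 groups of mice. The labels call the first group wild type. The second, here NICD2_Pax8, has the genotype R26NICD2/+pax8cre: 1 copy of an allele at Rosa26 that encodes the intracellular domain of Notch2, which activates Notch target genes without ligand, and a Cre recombinase named for the tubule transcription factor Pax8. Wild-type titles carry the prefix NICD, so these kidneys may have had the allele without Cre, and Pax-rtTA stands in the title of the series where the labels have Cre. Neither point is settled by the sources used here. The cells in which the allele was recombined are not given either, and no label says whether each library is a different mouse. The p-values therefore reflect the variation among these 6 samples, part of which may be technical.

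Podocytes are the epithelial cells that cover the capillaries of the glomerulus. Their foot processes interlock, and the gap between neighbouring processes is bridged by the slit diaphragm, a junction built around nephrin that completes the kidney's filter. The foot processes are kept apart by a charged surface coat and held in shape by actin, and loss of many of these proteins causes protein leak into the urine. In whole-kidney RNA podocytes are a small part of the sample. A lower level can mean fewer podocytes, less of the transcript in each, or a change in other cells, and these cannot be told apart here.

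Of the 8 genes, 7 had lower FPKM (fragment counts scaled by transcript length and library depth) in every NICD2_Pax8 library than in any wild-type library, and 1, Synpo, had higher FPKM in all 3. Across the 19503 genes with values, 16.5% were separated in the lower direction and 39.0% in the higher direction. By limma on log2(FPKM + 1), with Benjamini-Hochberg adjustment over the 13500 genes that reached 1 FPKM in 3 libraries or more, 7 of the 8 genes were tested. Nphs1, Wt1, Podxl, Ptpro, Tcf21 and Magi2 fell and Synpo rose, where 16.2% of all tested genes fell and 45.1% rose. Plce1 was under the filter. In the authors' deposited table, which covers all 8, 7 were lower and 1 higher at a q under 0.05, against 21.5% and 21.3% of its genes.

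**Figure D1:**
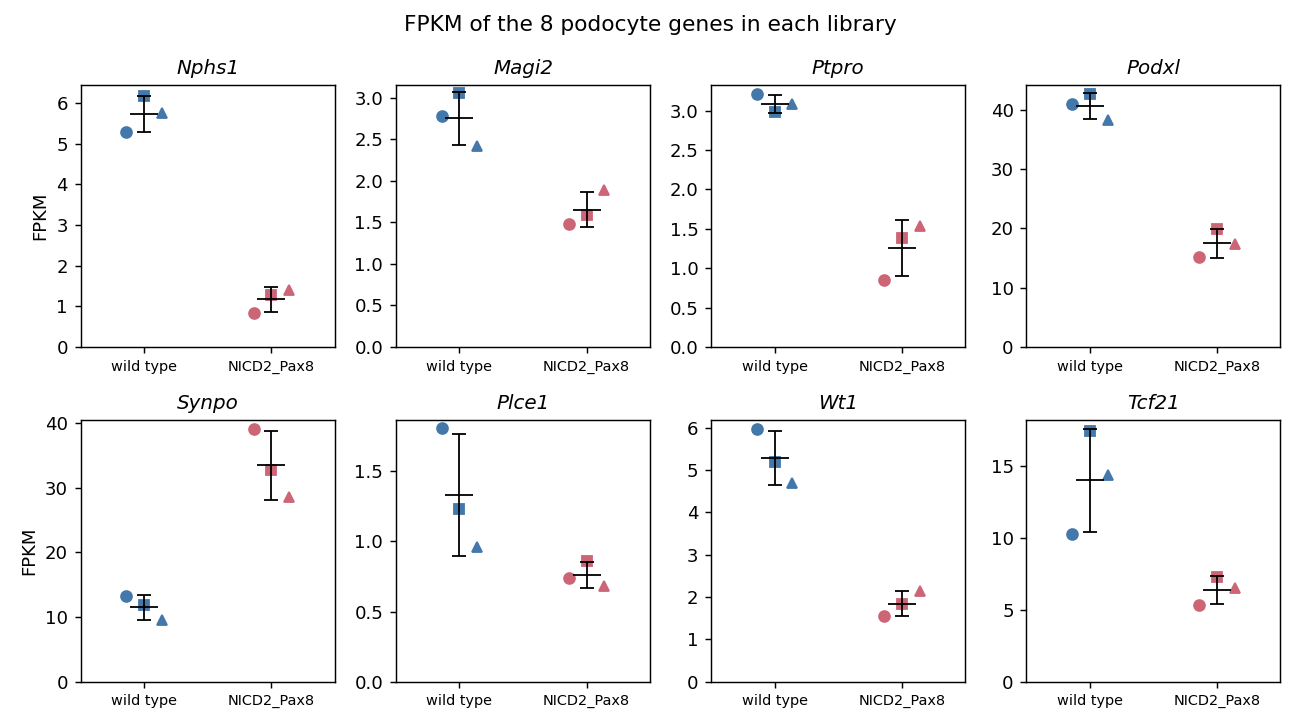
FPKM (vertical axes, each from 0) of the 8 genes in the 3 wild-type (blue) and 3 NICD2_Pax8 (red) libraries. Circle, square and triangle are replicates 1, 2 and 3, and bars are mean and SD. The groups do not overlap in any panel, and Synpo is the panel in which NICD2_Pax8 is higher.

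The regions before the start sites of 3 of the genes that fell are shown because they were lower in NICD2_Pax8 and their windows in the RefSeq promoter table (build GRCm38.p6) lay outside exons annotated by GENCODE. Each window runs from 250 to 41 bases before the listed start, 210 bases in all. Both strands were searched for the core of the site bound by RBPJ, the DNA-binding partner of the Notch intracellular domain (TGGGAA), for the E-box bound by factors of the Tcf21 class (CANNTG), and for an element of Wt1 (GCGTGGGNG). Capitals mark the matches. Ptpro lies at chr6:137252049-137252258 on the plus strand, Tcf21 at chr10:22820184-22820393 on the minus strand and Magi2, which has 2 listed starts, at chr5:19226796-19227005 and chr5:19907268-19907477 on the plus strand. Both Magi2 windows are inside the longer gene model of the expression table.
Ptpro: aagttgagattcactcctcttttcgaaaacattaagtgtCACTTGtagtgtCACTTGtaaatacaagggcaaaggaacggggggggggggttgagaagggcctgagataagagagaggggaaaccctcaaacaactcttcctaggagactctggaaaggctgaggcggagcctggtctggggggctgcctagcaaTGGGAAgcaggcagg
Tcf21: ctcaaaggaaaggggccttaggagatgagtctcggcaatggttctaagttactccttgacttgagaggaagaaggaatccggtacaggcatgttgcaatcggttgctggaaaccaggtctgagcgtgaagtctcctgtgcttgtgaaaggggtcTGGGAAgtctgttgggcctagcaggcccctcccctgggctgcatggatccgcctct
Magi2, first window: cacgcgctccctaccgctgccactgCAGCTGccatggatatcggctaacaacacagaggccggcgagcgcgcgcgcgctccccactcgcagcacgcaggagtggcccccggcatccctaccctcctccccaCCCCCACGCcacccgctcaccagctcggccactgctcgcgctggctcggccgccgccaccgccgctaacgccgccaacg
Magi2, second window: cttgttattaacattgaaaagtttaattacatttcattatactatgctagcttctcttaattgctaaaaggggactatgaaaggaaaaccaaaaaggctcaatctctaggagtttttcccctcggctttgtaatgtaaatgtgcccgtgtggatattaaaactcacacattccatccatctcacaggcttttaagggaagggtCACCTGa

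The Ptpro window held 1 match to the RBPJ core and 2 E-boxes, the Tcf21 window 1 match to the RBPJ core, and the first Magi2 window 1 E-box and, on the minus strand, 1 match to the Wt1 element. The second Magi2 window held 1 E-box and no match to the Wt1 element. Of 32851 windows of the same length, 18.6% held the RBPJ core, 60.7% an E-box and 1.31% the Wt1 element. In all, 5 of the 8 genes had an entry in the table. The Nphs1 window held none of the motifs, and the Plce1 window held 1 E-box. Both of these windows overlapped annotated exons and lay inside the gene models of the expression table. Wt1, Podxl and Synpo had no entry. A match describes these letters and is not a measured site.

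Among the components of the slit diaphragm, nephrin fell furthest. Nphs1 (gene 54631, chromosome 7, 30458207 to 30488623), which encodes nephrin, the adhesion protein that spans the slit, stood at 5.29, 6.17 and 5.76 FPKM in wild-type replicates 1 to 3 and at 0.83, 1.29 and 1.40 FPKM in NICD2_Pax8 replicates 1 to 3. Every NICD2_Pax8 library was far below the lowest wild-type library, and the mean was 20.4% of the wild-type mean, 4.89-fold lower. The log2 fold change was -1.64 (SE 0.15, 95% interval -1.99 to -1.29, adjusted p = 1.85e-04). The value depends on the pseudocount and the scaling, at -2.22 with a pseudocount of 0.1 FPKM and -1.88 after median-of-ratios scaling, and the authors' deposited table gives -2.61.

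Magi2 (gene 50791, chromosome 5, 19219387 to 20704792) encodes a scaffold protein with PDZ domains that binds nephrin on the inner side of the slit. Its FPKM was 2.78, 3.06 and 2.42 in wild type and 1.48, 1.59 and 1.89 in NICD2_Pax8. The groups were close but separate, and the mean was 1.67-fold lower (log2 fold change -0.50, SE 0.13, adjusted p = 0.0142). Without wild-type replicate 2 the adjusted p was 0.0586. In the deposited model Magi2 overlaps the annotated antisense gene 4921504A21Rik, and Nphs1 overlaps Nphs1os, Tcf21 Gm10824 and Plce1 Gm28991; the counting is not stated to use strand, so fragments of these partners cannot be told apart from those of the 4 genes.

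Of the surface proteins, Podxl (gene 27205, chromosome 6, 31519493 to 31563937) encodes podocalyxin, the charged sialoprotein of the foot process coat, and it is also made by endothelium. It was the most abundant of the 8 in wild type, at 41.08, 42.62 and 38.39 FPKM, and stood at 15.11, 19.92 and 17.41 FPKM in NICD2_Pax8. The groups were widely separated, and the mean was 2.33-fold lower (log2 fold change -1.18, SE 0.12, adjusted p = 3.10e-04). Because endothelium contributes to this transcript, the endothelial list is given with it: 7 of 10 endothelial markers fell and 1, Plat, rose from 26.8 ± 2.46 to 68.8 ± 11.6 FPKM (SD, n = 3 each). Among all genes tested 16.2% fell and 45.1% rose. The summed FPKM of the list was 202 to 242 in wild type and 161 to 167 in NICD2_Pax8, with no marker at 0. In mean FPKM 5 of the 7 fell by more than Podxl, with Tek 3.49-fold, Kdr 3.08-fold, Ehd3 2.62-fold, Tie1 2.5-fold and Emcn 2.48-fold lower, while Flt1 was 2.27-fold and Pecam1 1.76-fold lower; Cdh5 and Egfl7 did not pass. The part of endothelium in the fall of Podxl was not tested.

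Ptpro (gene 19277, chromosome 6, 137252299 to 137464634) encodes a receptor tyrosine phosphatase of the apical podocyte membrane, also known as GLEPP1. Its FPKM was 3.21, 2.98 and 3.08 in wild type, the tightest of the 8 relative to its mean, and 0.85, 1.39 and 1.53 in NICD2_Pax8. Replicate 1 was the lowest of the NICD2_Pax8 libraries, as it was for Nphs1, Wt1, Podxl, Tcf21 and Magi2. The mean was 2.46-fold lower (log2 fold change -0.87, SE 0.15, adjusted p = 0.00268).

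Synpo and Plce1 act on the inner side of the membrane. Synpo (gene 104027, chromosome 18, 60593981 to 60660173) encodes synaptopodin, an actin-binding protein of foot processes that is also found in the dendritic spines of neurons. It stood at 13.29, 11.78 and 9.46 FPKM in wild type and at 39.01, 32.74 and 28.49 FPKM in NICD2_Pax8. Every NICD2_Pax8 library was well above the highest wild-type library, and the mean was 2.90-fold higher (log2 fold change 1.46, SE 0.16, adjusted p = 4.33e-04). The deposited model of Synpo merges 18 transcripts, so the values do not show which of them rose.

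Plce1 (gene 74055, chromosome 19, 38481034 to 38785105) encodes a phospholipase C whose loss causes childhood nephrotic syndrome. It was the weakest of the 8, at 1.81, 1.23 and 0.96 FPKM in wild type and 0.74, 0.86 and 0.68 FPKM in NICD2_Pax8. The groups nearly met, at 0.96 and 0.86 FPKM, a gap smaller than the SD of 0.434 FPKM within wild type, and wild-type replicate 1 was the highest library. With no filter on low values, where 12.2% of all genes fell and 32.6% rose, its log2 fold change was -0.39 with an adjusted p of 0.0811 by limma, and with median-of-ratios scaling and no filter -0.56 with an adjusted p of 0.0162. The authors' deposited table gives -1.12 with a q of 8.14e-05.

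The transcription factors of the set fell as well. Wt1 (gene 22431, chromosome 2, 105126529 to 105173614), a zinc finger factor needed for podocyte identity, stood at 5.97, 5.18 and 4.70 FPKM in wild type and 1.55, 1.84 and 2.14 FPKM in NICD2_Pax8. The mean was 2.87-fold lower (log2 fold change -1.14, SE 0.14, adjusted p = 5.79e-04). Wt1 also marks the mesothelium of the kidney surface, whose markers Msln, Upk3b, Upk1b and Lrrn4 summed to 3.03 to 11.8 FPKM in wild type and 2.87 to 7.12 FPKM in NICD2_Pax8, overlapping. By limma 0 of the 3 tested passed, also at an unadjusted p under 0.05.

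Tcf21 (gene 21412, chromosome 10, 22817263 to 22820143), a factor of the basic helix-loop-helix class, is made by podocytes and by stromal cells. Its FPKM was 10.25, 17.43 and 14.39 in wild type and 5.32, 7.27 and 6.54 in NICD2_Pax8. Wild-type replicate 1 was the lowest of its group, and the mean was 2.20-fold lower (log2 fold change -1.01, SE 0.20, adjusted p = 0.00488), or 2.5-fold lower without that library. Stromal markers went in different directions: Dcn and Pdgfra fell, Col1a1, Col1a2 and Col3a1 rose, and Lum did not pass. Their sum was 144 to 276 FPKM in wild type and 293 to 315 FPKM in NICD2_Pax8, with no marker at 0, and their part in the fall of Tcf21 was not tested.

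**Figure D2:**
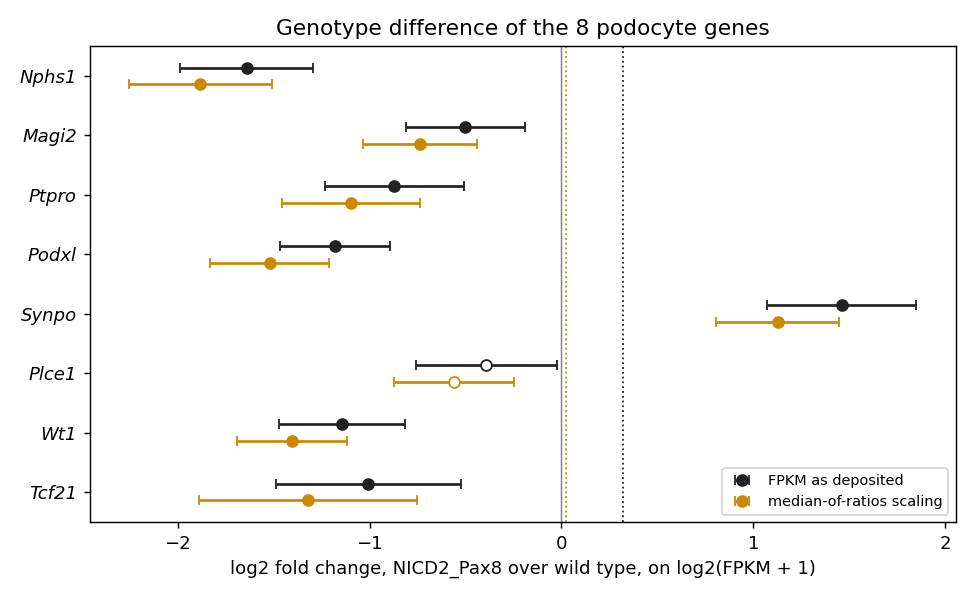
Log2 fold change of NICD2_Pax8 over wild type with its 95% interval (limma, log2(FPKM + 1) scale), from FPKM as deposited (black) and after median-of-ratios scaling (orange). Open points are Plce1, fitted with no filter, and dotted lines are the median of all genes tested, 0.32 and 0.02. Synpo is the only one of the 8 to the right of 0 under either scaling. The pseudocount shrinks the values of genes with low FPKM, so the points do not rank the genes by fold.

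The levels of all genes were shifted between the groups, with a median log2 fold change of 0.32, and median-of-ratios scaling moved this to 0.02. The scaling made the 6 called falls larger and the rise of Synpo smaller. After it the log2 fold changes were -1.88 for Nphs1, -1.52 for Podxl, -1.40 for Wt1, -1.32 for Tcf21, -1.10 for Ptpro, -0.74 for Magi2 and 1.13 for Synpo. All 7 passed, where 25.7% of all tested genes fell and 28.7% rose. The pseudocount shrinks the changes of genes with low FPKM, so these values do not rank the genes. As folds of mean FPKM after this scaling, Wt1 was 3.64-fold, Ptpro 3.13-fold and Podxl 2.97-fold lower. All 8 groups of values also stayed separate after this scaling, 7 lower and 1 higher, where 26.1% and 27.4% of all genes with values did. The direction of each of the 7 tested genes was the same with quantile normalization and upper quartile scaling.

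The order of the 8 genes by mean FPKM changed with the genotype. In wild type Podxl was highest at 40.7 FPKM, followed by Tcf21 (14), Synpo (11.5), Nphs1 (5.74), Wt1 (5.28), Ptpro (3.09), Magi2 (2.75) and Plce1 (1.33). Tcf21 and Synpo, Nphs1 and Wt1, and Ptpro and Magi2 overlapped as neighbours in that order. In NICD2_Pax8 Synpo was highest at 33.4 FPKM, with Podxl at 17.5 and Tcf21 at 6.38 each separate from its neighbours. The other 5 lay between 0.760 and 1.84 FPKM, and each overlapped the next in the order.

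A ratio between genes of 1 library does not depend on the scaling of that library, so the 7 other genes were set against Podxl. The ratio of Nphs1 to Podxl was 0.129, 0.145 and 0.15 in wild type and 0.0549, 0.0648 and 0.0804 in NICD2_Pax8, so nephrin was 2.12-fold lower relative to podocalyxin, with no overlap. Synpo to Podxl went from 0.324, 0.276 and 0.246 to 2.58, 1.64 and 1.64, also without overlap. The ratios of Wt1, Ptpro, Tcf21 and Plce1 to Podxl overlapped between the groups, with NICD2_Pax8 means 0.817, 0.937, 1.06 and 1.34 times those of wild type. Magi2 to Podxl was higher in NICD2_Pax8, at 0.0675 ± 0.00438 against 0.0954 ± 0.0145 (SD, n = 3 each).

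Of the 7 ratios, 1 was thus separate in the lower direction and 2 in the higher, while the ratios of all other genes to Podxl were separate in 4.21% and 68.6%. With 3 libraries against 3 an exact two-sided permutation test cannot give a p below 0.10, so these ratios are descriptions. Within a library Synpo was 1.64 to 2.51 times Nphs1 in wild type and 20.4 to 47.0 times in NICD2_Pax8.

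**Figure D3:**
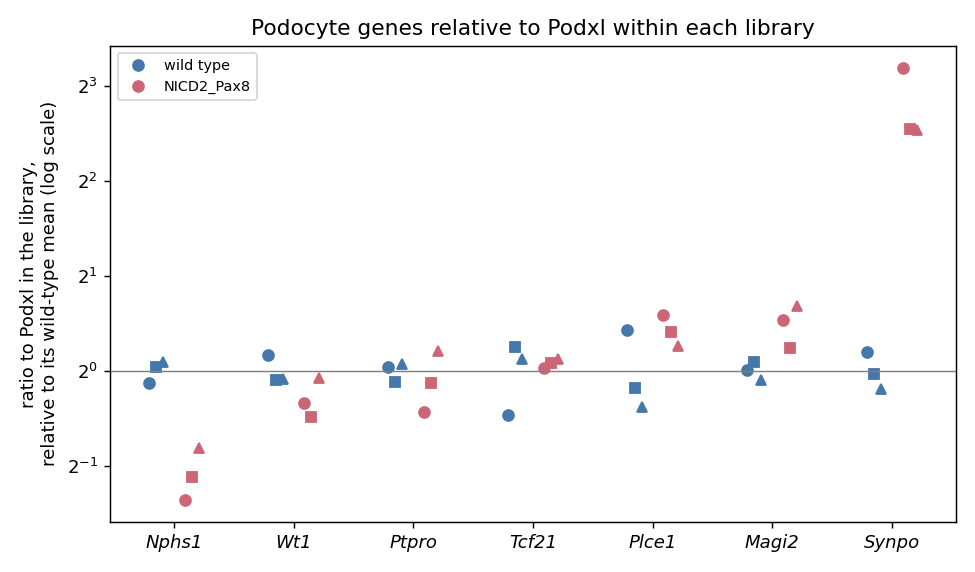
FPKM of each gene divided by that of Podxl in the same library, relative to the wild-type mean of that ratio (vertical log axis), for wild type (blue) and NICD2_Pax8 (red), with circle, square and triangle for replicates 1, 2 and 3. Nphs1 lies below its wild-type values and Synpo and Magi2 lie above theirs, while Wt1, Ptpro, Tcf21 and Plce1 overlap.

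The genes nearest in profile over the 6 libraries to Nphs1 and to Synpo are given as a description. Only 40 of the 13500 tested genes were in the podocyte lists, so nearest genes from outside them were likely beforehand. By distance between centred log2(FPKM + 1) profiles, Srr, Map3k15 and Vwa8 lay nearest to Nphs1 at 0.11, 0.12 and 0.14. Of the set itself, which holds far fewer genes than were searched, Podxl lay nearest to Nphs1 at 0.61. The pseudocount enters the distance, so genes of unlike fold can lie near. Srr fell from 29.7 to 9.47 FPKM in mean, and Nphs1 from 5.74 to 1.17. Nfkb1, Magohb and Cdc42ep5 lay nearest to Synpo at 0.09, 0.15 and 0.16.

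Other genes with known roles in podocytes went in different directions. Of the 46 genes reported here from 4 lists, 15 (32.6%) were lower without overlap and 21 (45.7%) higher, beside 16.5% and 39.0% of all genes with values. Of the 40 tested, 13 fell, 19 rose and 8 did not pass, with a median log2 fold change of 0.32 beside 0.32 for all genes tested. Among all genes tested 16.2% fell and 45.1% rose, and the counts of each list below stand beside the same shares. After median-of-ratios scaling 15 fell, 14 rose and the median was -0.0066, where 25.7% of all genes tested fell and 28.7% rose. Of the listed genes that fell, Thsd7a and Robo2 reached the filter in wild type alone. Many of these genes are also made by tubule cells or other cells of the kidney.

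Of the 7 tested slit diaphragm genes reported here 5 rose, or 3 after median-of-ratios scaling, and the others did not pass. Nck2, an adaptor that binds the tail of nephrin, went up from 7.20 ± 0.772 to 36.4 ± 2.72 FPKM, and Fat1, a giant cadherin, from 4.46 ± 0.973 to 23.5 ± 1.17 FPKM (SD, n = 3 each). Cd2ap, another adaptor of nephrin, stood at 20.9 ± 1.42 against 42.9 ± 21.8 FPKM (SD, n = 3 each; adjusted p = 0.0398), with 68.1 FPKM in NICD2_Pax8 replicate 1 and 29.8 and 30.7 in the others, and after scaling its adjusted p was 0.172. Crb2, Kirrel2, Kirrel3 and Trpc6 were under the filter. Crb2 stood at 0.68, 0.63 and 0.61 FPKM in wild type and 0.24, 0.35 and 0.33 FPKM in NICD2_Pax8, lower without overlap. Kirrel3 was higher without overlap, and Kirrel2 and Trpc6 overlapped.

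Of 12 cytoskeleton genes 5 fell and 6 rose, beside 16.2% and 45.1% of all genes tested. After median-of-ratios scaling 6 fell and 5 rose. Slc9a3r2, an adaptor that links podocalyxin to ezrin, fell from 44.9 ± 0.563 to 20.2 ± 0.825 FPKM, 2.22-fold and close to the 2.33-fold of Podxl. Ezr, which encodes ezrin and is in the same list, rose 2.44-fold, from 124.7 ± 22.2 to 303.7 ± 33.3 FPKM (SD, n = 3 each). Anln, an actin-binding protein of dividing cells, went up from 0.973 ± 0.548 to 17.4 ± 3.08 FPKM, as did Arhgdia, an inhibitor of small GTPases, from 181.1 ± 12.3 to 290.2 ± 18.3 FPKM (SD, n = 3 each).

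Of 5 podocyte transcription factors reported here beside Wt1 and Tcf21, 4 were tested, 0 fell by limma and 2 rose. Foxc2 and Zeb2 did not pass (unadjusted p = 0.253 and 0.405), so the count of falls was 0 at an unadjusted p under 0.05 too, while after median-of-ratios scaling 1 fell and 2 rose. Foxc1, a forkhead factor, rose from 3.46 ± 0.523 to 9.86 ± 0.896 FPKM and Dach1 from 3.72 ± 0.439 to 7.05 ± 0.921 FPKM (SD, n = 3 each). Lmx1b, under the filter, stood at 0.60, 0.61 and 0.54 FPKM in wild type and 0.21, 0.15 and 0.26 FPKM in NICD2_Pax8.

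In the list of surface, matrix and secreted genes 8 of 17 tested fell and 6 rose. Col4a3, a chain of the collagen of the glomerular basement membrane that tubule cells also make, fell from 68.4 ± 12.3 to 6.04 ± 1.61 FPKM, and Col4a4, its partner chain, from 40.5 ± 6.57 to 8.82 ± 1.76 FPKM (SD, n = 3 each). Cdkn1c, a cell cycle inhibitor of mature podocytes, fell 3.70-fold in mean FPKM. Agrn, a proteoglycan of basement membranes, rose from 20.7 ± 4.99 to 100.4 ± 9.65 FPKM, and Itgb1, the most abundant of the list, from 74.8 ± 5.38 to 106.3 ± 10.8 FPKM (SD, n = 3 each), which did not pass after scaling (adjusted p = 0.256). Of genes that rose, Lama5, a laminin chain, went from 9.66 ± 0.960 to 28.1 ± 5.97 FPKM, and in the cytoskeleton list Nes, an intermediate filament protein, from 4.48 ± 0.751 to 19.1 ± 2.98 FPKM (SD, n = 3 each). Kirrel3, a slit diaphragm gene under the filter, stood at 0.04, 0.11 and 0.04 FPKM in wild type and 1.11, 0.46 and 0.84 FPKM in NICD2_Pax8. Named after their values were seen were Col4a4, Cdkn1c, Lmx1b and Crb2, all lower in NICD2_Pax8, and Lama5, Nes, Kirrel3 and Ezr, all higher.

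**Figure D4:**
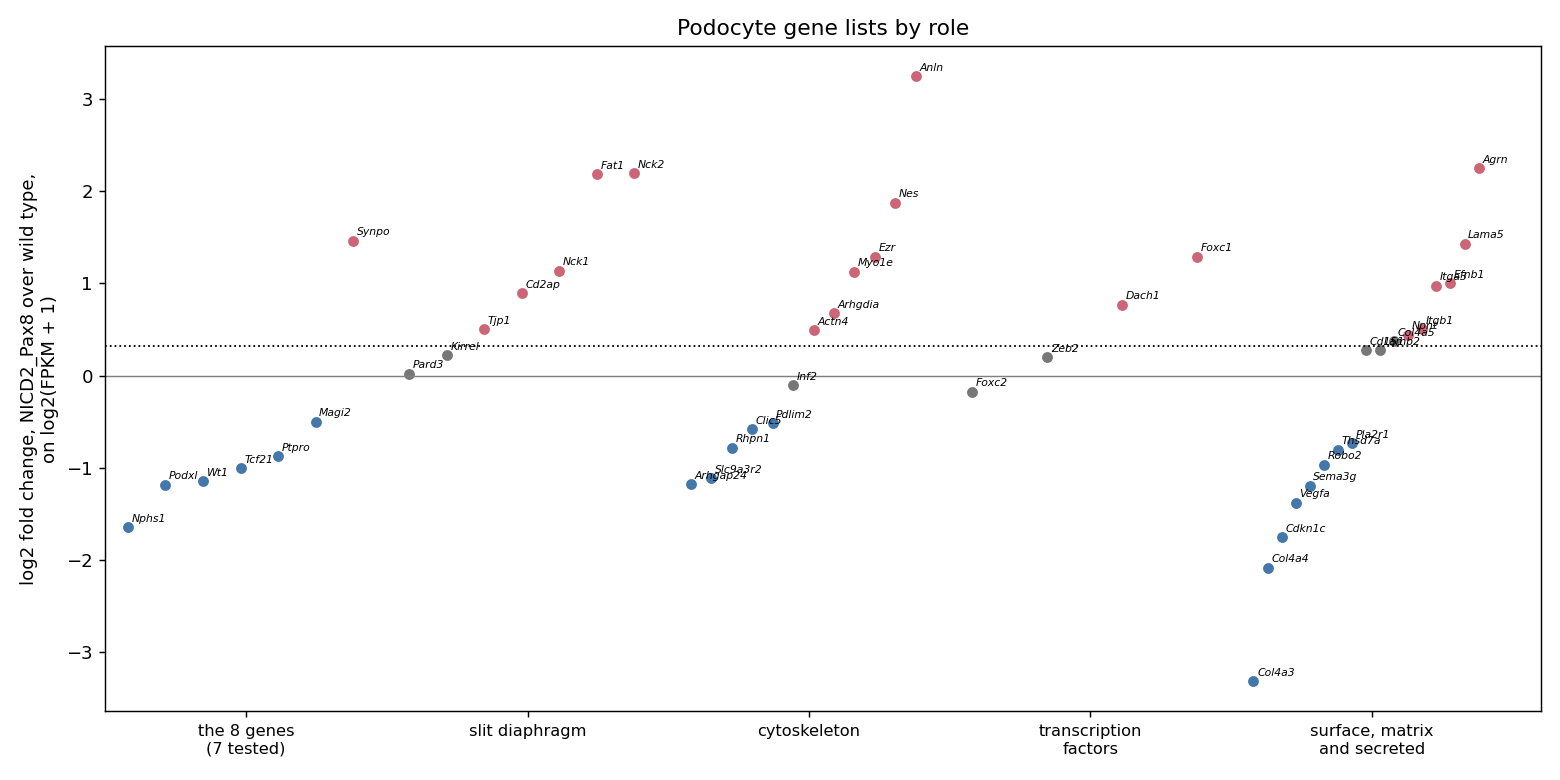
Log2 fold change of NICD2_Pax8 over wild type (limma, log2(FPKM + 1) scale) for the tested genes of the set and of 4 podocyte lists. Blue points fell, red points rose and grey points did not pass an adjusted p of 0.05, and the dotted line is the median of all genes tested, 0.32. In the set Synpo alone is above 0, while the lists of cytoskeleton and of surface, matrix and secreted genes hold both blue and red points.

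Relatives of the 8 genes were read to see how closely named proteins behaved. Magi1, the paralogue of Magi2, rose from 2.81 ± 0.144 to 5.77 ± 0.376 FPKM where Magi2 fell, and Ptprb, an endothelial phosphatase of the same class as Ptpro, fell from 7.48 ± 0.336 to 2.35 ± 0.196 FPKM (SD, n = 3 each). Cd34, a sialomucin related to podocalyxin, stood at 16.4 ± 3.64 against 11.2 ± 2.49 FPKM (SD, n = 3 each; adjusted p = 0.0781). Msc, a factor related to Tcf21, stood at 0, 0.04 and 0 FPKM in wild type and 2.10, 3.77 and 2.51 FPKM in NICD2_Pax8 (adjusted p = 2.65e-04), and reached the filter in NICD2_Pax8 alone. Synpo2 and Synpo2l, the relatives of Synpo, were under the filter. Of 7 relatives tested 1 fell and 3 rose.

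The depth behind these values was estimated from the steps of the low FPKM values at 14600000 to 17800000 fragments a library. The search covered only a preset range of depths, so depths outside it, such as multiples of these, were not tried. If the estimated depth holds, the 8 genes rested on about 78 fragments (Nphs1 and Wt1 in NICD2_Pax8 replicate 1) to 4271 fragments (Synpo in the same library). The longest transcript was taken as the length, and the length offset of 130 to 150 bases fitted with the depth was not applied.

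Other cells of the kidney changed at the same time, and their part in the values above was not tested. All 3 NICD2_Pax8 libraries held the row named NOTCH2 at 500.5 to 570.4 FPKM, where wild type held 1.27 to 3.75. Markers of the proximal tubule summed to 2505 to 3545 FPKM in wild type and 65.3 to 329.3 FPKM in NICD2_Pax8, with 5 of 5 falling and none at 0, and markers of smooth muscle to 69.4 to 105.0 and 259.6 to 320.1 FPKM, with 3 of 5 rising. Of 5 mesangial markers 2 fell and 2 rose, and of 4 markers of the parietal epithelium that lines the glomerular capsule 3 rose, with Cldn1 at 7.03 ± 0.533 against 34.0 ± 2.54 FPKM (SD, n = 3 each). Wild-type replicate 1 held adrenal cortex markers at a sum of 3629 FPKM, against 1.39 to 1.63 FPKM in the other 5 libraries, and fat markers at 4170 against 61.7 to 860.6 FPKM. Without that library 6 of the 7 tested podocyte genes fell and 1 rose, and the folds of the 8 genes ranged from 1.44 for Plce1 to 5.08 for Nphs1.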

How the data were processed

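Values were FPKM per gene and library, deposited by the authors in 1 table. Per the submitters' processing notes Bowtie 0.12.2 and the build mm8 were used, while the gene coordinates in the table match GRCm38 (19404 of 22002 matched genes had the same start and end as RefSeq), which is printed here; the counting tool is not given in the sources used here. The authors' q-values come from DESeq2, per the file headers, which name no tool for the log2 fold changes. Genes that reached 1 FPKM in 3 libraries or more were tested with limma 3.58.1 (R 4.3.3, mean-variance trend) on log2(FPKM + 1), wild type against NICD2_Pax8, two-sided, with Benjamini-Hochberg adjustment over 13500 genes and a threshold of 0.05. The script was tested on simulated data, which did not hold the shift of all genes seen here. There 66% of changes of log2 1 and 88% of changes of log2 2 were recovered, and 6.67% of calls were false. FPKM hold no counts, so depth was estimated, with the search limited to a preset range of depths. Single-transcript genes of 500 to 1500 bases with at most 8 fragments were fitted to whole fragments within 0.15. Of these values 72.5% to 79.0% came out whole, where chance gives 30%. Because this share is low, no count test was run.

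The 8 genes and the lists were chosen with earlier results of these data known; 2 genes of the lists are not reported here. By rule the text names, beside the 8, the 2 genes of smallest p and the most abundant gene of each podocyte list and of the relatives, the most abundant of each list of another cell type, and the 3 genes nearest to Nphs1 and to Synpo, leaving out predicted genes. Other pseudocounts, filters, scalings, a replicate block and leaving out each library were tried.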

Additional observations from a re-analysis of the deposited data

How the results depend on the processing

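Leaving out each library in turn gave 5 to 6 falls and 1 rise among the 7 tested genes of the set, and 12 to 13 falls and 17 to 20 rises among the other podocyte genes, where all libraries gave 6, 1, 13 and 19. The call that was lost was that of Magi2, without wild-type replicate 2. With a filter of 10 FPKM 2 genes of the set and 8 of the other podocyte genes fell, since fewer genes were tested. When wild-type replicate 1 was left out under median-of-ratios scaling, a setting chosen after seeing the data, 12 other podocyte genes rose. At an adjusted p under 0.01 by limma 5 genes of the set fell. Same-numbered libraries, which the authors also compared singly, did not deviate together (correlations of 0.095, -0.050 and 0.006). With so few libraries this cannot show whether the numbers pair the samples. With the replicate number as a block 6 genes of the set fell and 1 rose, and 13 and 19 other podocyte genes did. Low FPKM kept Plce1 under the filter.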

Other observations

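Of the genes named by the list rule and not yet described, Ren1, the renin gene of the juxtaglomerular cells beside the glomerulus, fell from 109.6 to 26.9 FPKM in mean, 4.08-fold, in the mesangial list. Tagln, Fabp4, Hsd3b1 and Slc34a1 were the most abundant of the smooth muscle, fat, adrenal cortex and proximal tubule lists. Fabp4 stood at 2139, 526.9 and 116.7 FPKM in wild-type replicates 1 to 3 and at 45.5, 159.3 and 80.1 FPKM in NICD2_Pax8, and Hsd3b1 at 1208 FPKM in wild-type replicate 1.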
